A study of Rattus norvegicus with 16 samples.

Results

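The feed effect of R-α-lipoic acid was compared between liver and epididymal fat of the same obese diabetic rats, to see which genes responded alike in both tissues, which responded in liver or in fat alone, and which went opposite ways. The value of interest for a gene was the liver difference (lipoic acid minus pair-fed) minus the same difference in fat, on log2(FPKM + 1). FPKM is the number of sequenced fragments per kilobase of transcript, scaled to the total of mapped fragments. Genes were members where the mean was 1 FPKM or more in each of the 4 groups, which kept 8937 of the 22517 genes in the files. This left out genes that are active in a single tissue, whose difference would only restate that tissue's change. The threshold used the group means and not the feed effect itself, but a responding gene that was low in 1 group was left out too. Outside the members, 22 genes tested also had a called difference. Cav1, Mmgt2 and C8a lay just inside it, with differences of 0.06, -0.05 and 0.16, and Pla2g4a, RGD1305680 and Kcnk5 just outside, with 0.17, -0.02 and 0.25.

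The study used 8 male Zucker rats of the line ZDF/GmiCrl-fa/fa, all of which carry the fa/fa defect of the leptin receptor and become obese and diabetic. From 9 to 11 weeks of age they ate either a chow with R-α-lipoic acid (LA) or the same chow without it in pair-fed amounts (PF), and liver and epididymal fat were taken after these 2 weeks. Each tissue and diet gave 4 libraries, 16 in all, described as biological replicates. Lean rats and rats fed freely without LA were not among the samples, so all values are contrasts within obese rats on matched intake. Liver and fat were taken from each rat, and how the libraries of both tissues belong together by rat is not given in the labels.

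Lipoic acid is a sulphur-containing cofactor that is bound to the dehydrogenase complexes of mitochondria, and as a supplement it is known as an antioxidant and as an agent that lowers lipid synthesis in liver. In fa/fa rats the liver takes up carbohydrate under high insulin and turns it into fatty acids, and fat tissue stores these as triglyceride and becomes infiltrated by macrophages. Interferons, a family of antiviral signalling proteins, act on nearly every cell type: their receptor signals to a complex that holds IRF9, which switches on genes through a DNA element called the interferon-stimulated response element. The response can therefore appear in hepatocytes, fat cells and immune cells alike.

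The promoters of several genes that changed in both tissues carry that element, and they are shown because interferon-response genes made up much of the shared response. Of the 87 members with a shared, liver-sided or opposite response, 66 had a promoter in the RefSeq table of the GRCr8 assembly (250 bases before to 50 after the start site). The core letters GAAANNGAAA, searched on both strands, occurred in 12 of 32 shared rises (37.5%), in 0 of 16 shared falls and in 0 of 18 liver-sided or opposite genes, against 1034 of 27457 promoters of all genes (3.77%). The 12 genes were Ifit3, Irf7, Oas1a, Oas1b, Oas1i, Apol9a, Ifi44, Lgals3bp, Ifi27l1, Pml, RT1-S3 and Dtx3l. Windows of 60 bases around the match are printed 5′ to 3′ on the strand of the gene, with the match in capitals. A match on the other strand reads as the reverse complement.
Ifit3 (1:241527257-241527316, + strand): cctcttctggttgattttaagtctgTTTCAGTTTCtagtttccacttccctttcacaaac
Irf7 (1:205800058-205800117, - strand): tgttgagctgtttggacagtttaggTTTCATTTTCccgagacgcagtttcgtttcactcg
Oas1a (12:41330400-41330459, + strand): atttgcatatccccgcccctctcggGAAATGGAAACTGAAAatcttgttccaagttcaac
Oas1b (12:41395877-41395936, - strand): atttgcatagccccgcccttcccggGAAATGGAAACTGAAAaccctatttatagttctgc
Apol9a (7:111028251-111028310, - strand): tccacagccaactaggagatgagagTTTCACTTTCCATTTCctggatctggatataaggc
The first matched base lay 36 to 72 bases before the start site in these genes and in Oas1i. In Oas1a, Oas1b, Oas1i and Apol9a 2 overlapping matches formed a single run of capitals. Oas1a and Oas1b are near-identical copies on chromosome 12 together with Oas1i, so their promoters are not independent examples, and their reads may be shared.

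Other elements were searched in the same way. The letters TGATGNAA, the core of the amino acid response element through which ATF4 acts, occurred in 2 of 18 liver-sided or opposite promoters (Trib3 and Ugt1a6), in 1 of 32 shared rises and in 3.82% of all promoters. The letters TGACNNNGC, the core of the antioxidant response element bound by NRF2, occurred in 8 of 32 shared rises and 6 of 18 liver-sided or opposite genes, against 12.2% of all promoters. The shared rises were Ifit3, Ifi44, RGD1306344, Uba7, Bag3, Phf11, Gstp1 and Mt2A. Of the liver-sided genes Acot2 rose under LA, while Acsl5, RGD1310660, Plekhb1, Lcmt1 and Ltbp4 fell. The oxidant-response gene Srxn1, described later, had no match. The E-box letters CACGTG were found in 4 of 32 shared rises, in 1 of 18 liver-sided or opposite genes and in 6.65% of all promoters. The windows of Trib3 and Gstp1, which are described later, are shown with these matches in capitals.
Trib3 (3:161275534-161275593, - strand): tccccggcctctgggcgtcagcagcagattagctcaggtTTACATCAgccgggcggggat
Gstp1 (1:210769733-210769792, - strand): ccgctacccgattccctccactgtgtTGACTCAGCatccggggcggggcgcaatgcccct
The Trib3 match lies on the opposite strand to the gene. These matches describe letters only, and binding was not measured.

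The libraries of each tissue carried that tissue's markers. Summed FPKM of 9 adipocyte markers was 34520 to 42910 in fat and 59.4 to 73.3 in liver, and that of 10 hepatocyte markers was 33110 to 52560 in liver and 323 to 1374 in fat. Alb and Tf were listed at 0 in every liver library, which for these abundant liver transcripts can be a failed estimate, and neither is a member. The hepatocyte sums of liver therefore lack both genes, while those of fat hold them. The files hold no counts, so absolute depth is unknown. The value of a single fragment, relative to liver PF replicate 1, was 0.853 to 1 in pair-fed liver, 0.722 to 0.894 in LA-fed liver, 0.774 to 0.961 in pair-fed fat and 0.739 to 0.866 in LA-fed fat, where a lower value goes with a deeper library. Within groups, log2 values correlated at 0.971 to 0.993 across members.

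In liver alone, 339 members passed at an adjusted p under 0.05 (171 higher and 168 lower under LA, limma with Benjamini-Hochberg adjustment), where the background over all genes tested in liver was 4.48% (2.27% higher, 2.21% lower). In fat alone no member passed, with a background of 0.0174% and a smallest adjusted p of 0.351 among members. At an unadjusted p under 0.05, 265 members passed in fat (2.97% of the 8934 members tested there, against 3.92% of all genes tested) and 1698 in liver (19.0%, against 20.1%). The median standard error of an effect was 0.12 in fat and 0.10 in liver. The liver count was 166 without liver LA replicate 2 and 210 without liver PF replicate 1.

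Genes called in liver more often had the same sign in fat than the opposite one. They were chosen for their liver effect, so the size of that effect is not comparable with the fat effect. Of the 171 liver rises, 71.9% also had a higher mean log2 value under LA in fat, while 53.7% of all members did. Their median effect was 0.61 in liver and 0.09 in fat, and the middle 50% of their fat effects lay between 0.00 and 0.28, beside -0.06 and 0.09 for all members. Of the 168 liver falls, 70.2% were lower in fat too, with medians of -0.49 and -0.11. Over all members the 2 effects correlated at r = 0.32 across genes, which are not independent replicates and come from the same rats. Of members at an unadjusted p under 0.05 in both tissues, 103 moved the same way and 16 opposite ways.

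The test of the difference between the tissues called 24 members, 11 with a positive and 13 with a negative difference. The background was 0.381% of 12079 genes tested (0.232% positive, 0.149% negative). At an unadjusted p under 0.05 the difference passed for 713 members (7.98%), and 8.20% of all genes tested. In all 24 genes the liver libraries of the 2 diets did not overlap, where 12.3% of genes tested in liver had no overlap, and in 2 of them the fat libraries did not overlap either, where the background was 2.08%. By the tissues' own fits 21 genes were liver-sided (an unadjusted p under 0.05 in liver and not in fat), 3 were opposite (under 0.05 in both with opposite signs) and 0 were fat-sided. The number called depended on single libraries: it was 7 without fat PF replicate 1, 10 without liver PF replicate 1 or fat PF replicate 4, 11 without liver LA replicate 2, 13 without fat PF replicate 2, and 15 without any 1 of the 4 LA fat libraries. Cabc1, Acsl5, Ddhd1, Polg2, Ssx2ip, RGD1560523 and Tmem63a were called in each of the 16 fits that left out 1 library.

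A shared response needed the mean of both tissue effects at an adjusted p under 0.05, the same sign and an unadjusted p under 0.05 in each tissue, and no called difference. The mean effect was called for 140 members (88 higher, 52 lower), against a background of 1.63% (1.03% higher, 0.596% lower). Of these, 63 met all conditions (0.580% of all genes tested did), 43 as rises and 20 as falls. Of the 63 genes, 49 also passed in liver at an adjusted p under 0.05. The median effect of the 43 rises was 0.77 in liver and 0.56 in fat, and that of the 20 falls was -0.62 and -0.39. The groups did not overlap in liver for 55, in fat for 18 and in both tissues for 17. The count was 36 without fat LA replicate 2, 38 without fat PF replicate 4, 41 without fat PF replicate 1 and 106 without fat LA replicate 3. For 44 of the 63 the mean effect was called in each of the 16 fits without 1 library. Only 21 of the 63 met all conditions of a shared response in each of these fits. The mean effect was not fitted with libraries blocked by rat.

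Interferon-response genes made up 15 of the 43 shared rises. Of 36 genes on the interferon list, 34 were in the files and 26 were members. Of the 26, 15 were shared rises and 18 had a called mean effect, all of them higher under LA. In liver 16 passed and in fat 18 reached an unadjusted p under 0.05. The median effect was 0.74 in liver and 0.48 in fat, beside 0.00 and 0.01 over all genes tested. The list was drawn up with earlier results of these data known, so its direction is not independent evidence. RNA from whole tissue cannot tell more RNA per cell from more cells of a type. The shared rises included transcription factors (Irf7, Irf9), antiviral effectors (Mx1, Mx2, Oas1a, Oas1b, Ifit2, Ifit3), the ubiquitin-like modifier G1p2 (the former symbol of Isg15) with its protease Usp18 and ligase Herc6, and the RNA sensor Dhx58.

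Mx2, a GTPase that blocks virus replication, was at 3.42, 5.63, 4.64 and 6.01 FPKM in pair-fed liver and at 44.2, 40.6, 26.9 and 48.5 in LA-fed liver. The fat libraries lay at 6.07, 8.50, 4.10 and 4.67 under PF and at 20.01, 18.3, 10.7 and 13.3 under LA. The diets did not overlap in either tissue. The ratio of the means was 8.14 in liver and 2.67 in fat. Its mean effect was 2.03 ± 0.16 (SE, adjusted p = 8.98e-06, limma), with 2.78 in liver and 1.28 in fat. The difference between the tissues, 1.50 ± 0.32, missed the threshold at an adjusted p of 0.0547 (0.028 to 0.13 over the fits without 1 library).

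G1p2 encodes ISG15, which is joined to other proteins during the antiviral response. It was at 10.1, 13.7, 10.2 and 14.6 FPKM in pair-fed liver and at 109, 99.4, 64.5 and 153 in LA-fed liver. In fat the levels were at 19.0, 27.7, 12.5 and 18.3 under PF and at 69.1, 38.8, 25.5 and 36.5 under LA. PF fat replicate 2 exceeded LA fat replicate 3, so the fat groups overlapped by that pair. The effect was 2.98 in liver and 1.05 in fat, with a difference of 1.93 ± 0.41 (adjusted p = 0.0525, limma, and 0.017 to 0.12 over the fits without 1 library).

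Irf7, the factor that amplifies interferon production, was at 3.63, 6.02, 4.63 and 4.05 FPKM in pair-fed liver and at 31.7, 32.1, 19.9 and 43.2 in LA-fed liver. Fat libraries were at 20.9, 28.2, 14.1 and 15.4 under PF and at 61.2, 46.4, 29.0 and 40.5 under LA. Neither tissue showed overlap. Its PF level was higher in fat than in liver (19.6 ± 6.43 and 4.58 ± 1.04, SD, n = 4), while the LA means were 31.7 ± 9.54 in liver and 44.3 ± 13.4 in fat. Ifit3, which binds viral RNA complexes, was at 2.36 to 4.12 FPKM in pair-fed liver, 9.60 to 14.1 in LA-fed liver, 5.17 to 6.90 in pair-fed fat and 9.37 to 16.01 in LA-fed fat, again with no overlap. Its mean effect was 1.35 ± 0.12 (adjusted p = 9.38e-06, limma).

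For some interferon genes the difference between the tissues was small beside its error on the log2(FPKM + 1) scale. Mx1 was at 1.12 ± 0.273 FPKM in pair-fed liver and 5.67 ± 1.37 in LA-fed liver, and at 3.61 ± 0.977 and 9.56 ± 2.70 in fat (SD, n = 4). Its difference between tissues was 0.46 ± 0.29 (SE, unadjusted p = 0.133), but the ratio of means was 5.08 in liver and 2.65 in fat, since adding 1 shrinks the effect where levels are low. Irf9, a DNA-binding factor of the interferon response, was at 8.15 to 9.93 in pair-fed liver and 14.7 to 17.4 in LA-fed liver, and at 13.7 to 17.7 and 21.1 to 27.9 in fat, with a difference of 0.17 ± 0.14. Slfn3 had effects of 1.40 in liver and 1.28 in fat. The intervals of these differences include 0 but do not show that the effects were equal. Over the 26 interferon members the difference was positive in 21, with a median of 0.42, and 12 reached an unadjusted p under 0.05. Rsad2 (2.04, adjusted p = 0.00118, limma) and Cmpk2 (1.45, adjusted p = 0.0119) on the list also had called differences. They were below 1 FPKM in a group and so were not members.

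**Figure D1:**
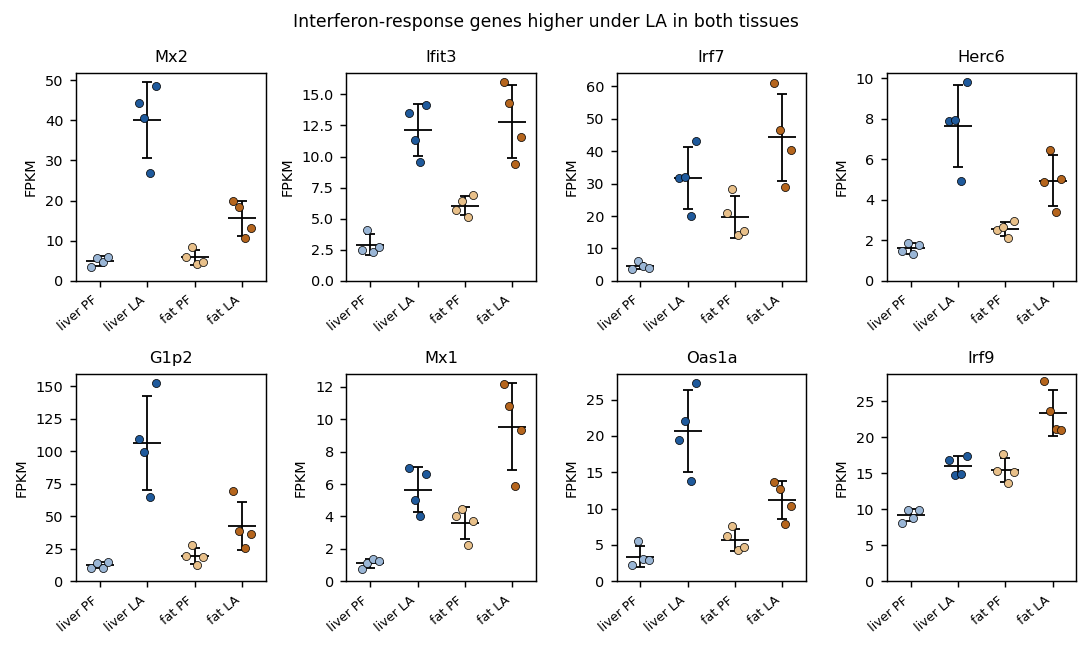
FPKM (vertical, from 0) of 8 interferon-response genes in the 4 groups, each point a library and each bar the mean with its SD. LA libraries lie above PF libraries in liver for all 8 genes and in fat for all but G1p2, whose PF and LA fat libraries overlap.

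Other interferon members were not shared. Stat2 had effects of 0.23 in liver and 0.25 in fat and was not called. Cxcl10, an interferon-induced chemokine, had 1.69 in liver (adjusted p = 0.00105, limma) and 0.26 in fat (unadjusted p = 0.492), but its difference of 1.43 missed the threshold (adjusted p = 0.264). Bst2 was the only interferon member with effects of opposite sign, -0.35 in liver and 0.46 in fat, and its difference was not called (adjusted p = 0.363).

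Genes of antigen presentation, many of them interferon-inducible, had a median effect of 0.40 in liver and 0.09 in fat over 14 members. Tap1, Tapbp and Psmb9 passed in liver, with effects of 0.60, 0.35 and 0.64, and 0.35, 0.20 and 0.23 in fat. None of the 14 had a called difference or a shared call. Outside that list, 3 genes of the rat class I region were shared rises: RT1-T24-3 (1.00 in liver, 0.84 in fat), RT1-T24-4 (0.48 and 0.42) and RT1-S3 (0.41 and 0.78). These belong to a family of near-identical copies, so reads may be split among them. The same holds for isg12(b), with 2.25 and 1.46, and Ifi27l1, with 0.77 and 0.51, which are copies of the Ifi27 family.

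Macrophage genes were also among the shared rises. All 7 macrophage markers that are members had a higher mean under LA in both tissues, with medians of 0.57 in liver and 0.45 in fat, and 3 of them were shared rises. Cd163, a scavenger receptor for haemoglobin, went from 5.04 to 8.59 FPKM in liver and from 34.3 to 42.8 in fat. Gpnmb, a gene of lipid-laden macrophages, went from 6.48 to 12.2 in liver and from 96.5 to 181 in fat. Msr1, a receptor for modified lipoproteins, had 0.28 in liver and 0.45 in fat. The mean effect of Gpnmb stayed called in 9 and that of Msr1 in 3 of the 16 fits without 1 library, and that of Cd163 in all 16. Mpeg1, a pore-forming protein of macrophages outside the list, was a shared rise with 0.68 and 0.42. Summed over the 11 markers, FPKM was 112 to 144 in pair-fed liver and 172 to 254 in LA-fed liver, without overlap, and 793 to 1226 in pair-fed fat and 1147 to 2376 in LA-fed fat. Emr1 and Marco were listed at 0 in all 4 groups. The highest fat sum was LA replicate 1, which was also the highest fat library for Mx2, Irf7, Ifit3, G1p2 and Mx1. Without that library 53 genes were shared, 45 of them among the 63. Fat LA replicate 3 had a sum of 1557, above all LA fat libraries but replicate 1. It was the lowest LA fat library for the same interferon genes. The mean macrophage sums were higher under LA in both tissues, and their part in the interferon result was not tested.

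A few shared rises belong to the oxidant and metal response. Srxn1, which repairs oxidised peroxiredoxins, was at 3.28 to 5.27 FPKM in pair-fed liver, 6.66 to 8.96 in LA-fed liver, 9.87 to 12.9 in pair-fed fat and 13.7 to 26.6 in LA-fed fat. The diets did not overlap in either tissue. Gstp1, a glutathione transferase, was at 16.3 to 20.9 in pair-fed liver and 23.4 to 60.8 in LA-fed liver, and at 161 to 188 and 183 to 306 in fat, where the groups overlapped. The metallothionein Mt2A had effects of 1.04 and 1.17, and its mean effect stayed called in 5 of 16 fits without 1 library. Of 24 members on that list, 3 were shared rises and 0 shared falls, and the medians were 0.24 in liver and -0.01 in fat. Nqo1, often used as the readout of NRF2, was at 8.47 to 10.1 in pair-fed liver and 9.05 to 12.3 in LA-fed liver, and at 22.9 to 50.7 and 26.0 to 44.9 in fat, with overlap in both. Gclm, a subunit of the enzyme that starts glutathione synthesis, had 0.44 in liver (adjusted p = 0.0309, limma) and -0.17 in fat, and its difference of 0.62 just missed the threshold (adjusted p = 0.053).

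By the size of the mean effect, the first 3 shared falls were genes of the lipogenesis list. Of 21 lipogenesis genes, 17 were members, and 3 were shared falls: Pnpla3, Elovl6 and Acly. Of the 17, 16 were lower under LA in liver and 16 in fat, with medians of -0.65 and -0.40, while 5 passed in liver and 7 reached an unadjusted p under 0.05 in fat. No lipogenesis member had a called difference. As with the interferon genes, this list was chosen with earlier results known.

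Pnpla3, a lipid-droplet protein whose gene is switched on by insulin and carbohydrate, was at 205, 118, 172 and 228 FPKM in pair-fed liver and at 10.1, 8.66, 37.5 and 6.04 in LA-fed liver. In fat it was at 142, 101, 50.2 and 120 under PF and at 53.9, 48.5, 59.5 and 22.3 under LA. PF fat replicate 3 lay among the LA libraries, while liver showed no overlap. The effects were -3.76 in liver and -1.14 in fat, with a mean effect of -2.45 ± 0.32 (adjusted p = 0.000444, limma). The difference of -2.62 ± 0.64 was not called (adjusted p = 0.103). Without liver LA replicate 3, the highest LA library, the difference was -3.14 and was called (adjusted p = 0.0091, limma).

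Elovl6, which lengthens palmitate, was at 31.1, 25.5, 68.3 and 55.5 FPKM in pair-fed liver and at 9.88, 14.8, 23.0 and 8.70 in LA-fed liver. The fat libraries lay at 12.6, 6.81, 4.05 and 12.4 under PF and at 3.67, 4.23, 4.02 and 2.85 under LA. Here too PF fat replicate 3 lay within the LA range. The effects were -1.60 and -0.98, with a difference of -0.61 ± 0.50. Acly, the enzyme that cleaves citrate to supply acetyl-CoA for lipid synthesis, was at 161 to 406 in pair-fed liver, 50.7 to 128 in LA-fed liver, 51.1 to 193 in pair-fed fat and 46.9 to 74.9 in LA-fed fat. Its mean effect of -1.20 ± 0.27 (adjusted p = 0.0328, limma) was called in 8 of the 16 fits without 1 library, with a highest adjusted p of 0.074.

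Of the lipogenic genes that missed the shared call, Acaca and Me1 had effects of similar size in both tissues. Acaca, the enzyme of the first committed step of fatty acid synthesis, had -0.89 in liver and -0.92 in fat, and its mean effect missed the threshold (adjusted p = 0.0881). Me1, a source of NADPH, had -0.89 and -0.90 (adjusted p = 0.145). For these genes the PF libraries spread widely: Acaca in pair-fed fat was at 82.9, 27.5, 20.3 and 66.7 FPKM, while LA fat lay between 19.8 and 24.7. Scd, listed apart from Scd1, had -0.19 in liver and -0.54 in fat and was not called. Scd1 itself is not a member, since it is listed at 0 in every PF fat library. Acacb, the isoform that restrains fatty acid entry into mitochondria, had -0.77 in liver and 0.10 in fat, with a difference of -0.88 (unadjusted p = 0.0265, adjusted p = 0.489).

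On the triglyceride synthesis and storage list, 2 of 14 members (Dgat2 and Agpat3) were shared falls and 1 passed in liver, with medians of -0.16 in liver and -0.17 in fat. Dgat2, which adds the last fatty acid, was at 271 to 355 FPKM in pair-fed liver and 177 to 230.5 in LA-fed liver, and at 924 to 1263 in pair-fed fat and 666 to 1022 in LA-fed fat. Acsl1, which activates fatty acids and is on the lipolysis and uptake list, was at 667 to 763 in pair-fed liver and 508 to 560.0 in LA-fed liver, and at 1227 to 1708 and 988 to 1289 in fat. Both overlapped in fat and not in liver, with effects of -0.59 and -0.40 for Dgat2 and -0.43 and -0.36 for Acsl1. The mean effect stayed called in 9 and 7 of the 16 fits without 1 library. Agpat3 had -0.30 and -0.42 (called in 5 of 16), and, outside the list, Tm6sf2, which loads lipid onto secreted lipoproteins in liver, -0.52 and -0.26 (called in 9 of 16). Pcyt2, an enzyme of phosphatidylethanolamine synthesis, was at 156 to 169 in pair-fed liver and 107 to 127 in LA-fed liver, and at 20.4 to 26.9 and 18.1 to 22.5 in fat.

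Among the lipoate-dependent complexes and their regulators, Pdk1 was the only shared call of 20 members. Pdk1 phosphorylates and turns off pyruvate dehydrogenase. It was at 51.8, 42.4, 53.1 and 63.1 FPKM in pair-fed liver and at 29.0, 26.5, 34.3 and 25.9 in LA-fed liver. In fat the levels were at 58.6, 44.5, 33.8 and 62.1 under PF and at 37.1, 34.2, 38.1 and 28.1 under LA, with PF replicate 3 inside the LA range. Its mean effect was -0.66 ± 0.12 (adjusted p = 0.00838, limma). Pdk4, the isoform induced by fasting, had effects of opposite sign: -0.77 in liver and 0.61 in fat. For Pdk4 liver had an unadjusted p of 0.00555 and missed the adjusted threshold (adjusted p = 0.0783, limma). Fat missed the unadjusted threshold too (unadjusted p = 0.0757, limma). The Pdk4 difference of -1.37 ± 0.41 was not called (adjusted p = 0.231). Median effects over the 20 members were -0.15 in liver and -0.13 in fat.

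The other shared falls were of mixed function. C6, a component of the complement membrane attack complex, was at 72.3 to 97.7 FPKM in pair-fed liver and 38.4 to 50.03 in LA-fed liver, and at 254 to 316 and 235 to 246 in fat, without overlap in either tissue. Tspan12, a membrane protein of Wnt signalling, was at 48.6 to 58.1 and 31.7 to 34.5 in liver, and at 309.7 to 500.2 and 242 to 336 in fat. Ces8, a carboxylesterase, fell from 10.9 ± 0.469 to 6.22 ± 0.467 in liver and was at 2.65 ± 0.360 and 1.99 ± 0.295 in fat (SD, n = 4). Tmem135, a peroxisomal and mitochondrial membrane protein, had -0.65 and -0.29. Il33, an alarm cytokine of tissue cells, had -0.72 and -0.24 (called in 12 of 16 fits without 1 library).

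Liver transcripts were also measured in the fat libraries. All 8 hepatocyte markers that are members had a lower mean in LA-fed fat, with a median of -0.76 and no unadjusted p under 0.05. The sum over all 10 hepatocyte markers was 757 to 1374 FPKM in pair-fed fat and 323 to 1210 in LA-fed fat. Prodh2, a shared fall that is at 164 FPKM in pair-fed liver and 2.17 in pair-fed fat, is a shared gene more than 50-fold more abundant in liver, and the part of the hepatocyte markers in its fat value was not tested. With members over 50-fold apart between the tissues left out, 61 of the 63 genes were shared and all 24 differences were called.

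**Figure D2:**
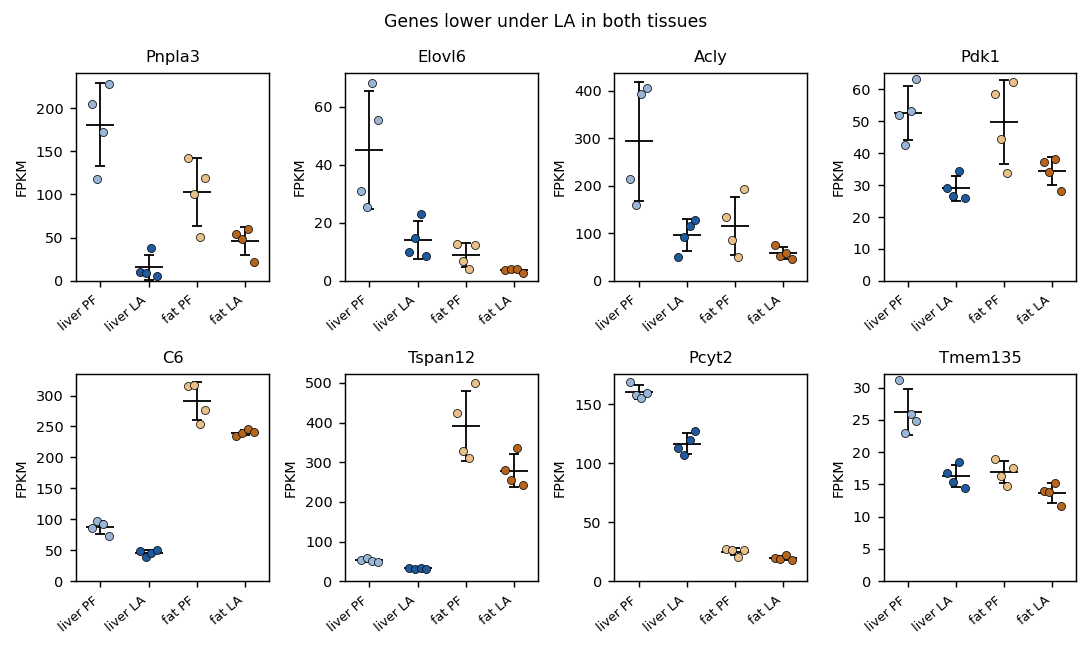
FPKM (vertical, from 0) of 8 shared falls in the 4 groups, each point a library and each bar the mean with its SD. In liver the diets do not overlap for any of the 8 genes, while in fat they overlap for all but C6, for most through PF fat replicate 3.

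The liver-sided responses were 21 genes, 10 with a positive and 11 with a negative difference. Cabc1, the former symbol of Coq8a, a mitochondrial kinase-like protein needed for coenzyme Q synthesis, was at 127, 108, 119 and 154 FPKM in pair-fed liver and at 64.2, 66.0, 63.9 and 68.1 in LA-fed liver. Fat libraries were at 15.7, 14.7, 15.4 and 14.5 under PF and at 15.8, 14.5, 15.8 and 20.5 under LA. The fat libraries overlapped, and the liver libraries were far apart. The ratio of means was 0.517 in liver and 1.10 in fat. The difference was -1.05 ± 0.15 (adjusted p = 0.00457, limma), with a fat effect of 0.12 and its 95% interval from -0.12 to 0.37.

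Acsl5, which activates fatty acids at mitochondria and the endoplasmic reticulum, was at 329, 311, 336 and 390.5 FPKM in pair-fed liver and at 181, 147, 219.7 and 195 in LA-fed liver. In fat it lay between 32.9 and 36.9 under PF and between 33.9 and 40.9 under LA. The difference was -1.02 ± 0.16 (adjusted p = 0.00667, limma), and the interval of the fat effect was -0.07 to 0.33. Its relative Acsl1, described above, was a shared fall. Ddhd1, a phospholipase, was at 5.22 to 6.44 in pair-fed liver and 2.25 to 3.64 in LA-fed liver, and at 6.40 to 7.23 and 7.03 to 7.31 in fat. Polg2, the accessory subunit of the mitochondrial DNA polymerase, was at 17.3 to 20.4 in pair-fed liver and 8.68 to 10.6 in LA-fed liver, and at 1.38 to 2.36 and 1.56 to 2.05 in fat. Its low fat level makes log2(FPKM + 1) understate a fat change, and with a pseudocount of 0.1 its call was lost.

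The other liver-sided falls were Plekhb1 (-0.98), Zfp36l1 (-0.80), Tmem63a (-0.74), Lcmt1 (-0.74), Ltbp4 (-0.74) and RGD1310660 (-0.64), given as differences. Zfp36l1 encodes a protein that binds AU-rich elements and speeds the decay of messenger RNA, and was at 59.3 to 80.2 FPKM in pair-fed liver and 39.9 to 46.8 in LA-fed liver, and at 44.1 to 56.0 and 49.3 to 63.0 in fat. Lcmt1 methylates the catalytic subunit of protein phosphatase 2A. Ltbp4 holds latent TGF-β in the matrix, and its call was kept in 1 of 16 fits without 1 library, with a highest adjusted p of 0.099. For Plekhb1 this number was 11, for Zfp36l1 6, for Lcmt1 5 and for RGD1310660 4.

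Acot2, which releases fatty acids from CoA in the mitochondrial matrix and is a target of PPARα, was at 5.75, 6.02, 6.26 and 6.53 FPKM in pair-fed liver and at 13.0, 40.4, 20.2 and 31.2 in LA-fed liver. In fat it was at 9.03, 7.37, 8.004 and 10.3 under PF and at 9.41, 8.44, 9.90 and 6.95 under LA. The ratio of means was 4.26 in liver, and the fat effect had an interval of -0.29 to 0.29. The difference of 1.81 ± 0.33 was called (adjusted p = 0.026, limma), and kept in 9 of 16 fits without 1 library. Acot2 has close copies on the same chromosome, and reads may be shared.

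Acsf2, a mitochondrial acyl-CoA synthetase, was at 5.96, 2.74, 8.29 and 4.14 FPKM in pair-fed liver and at 11.8, 17.8, 22.9 and 25.5 in LA-fed liver. All 8 fat libraries lay between 3.62 and 4.51. The difference was 1.70 ± 0.33 (adjusted p = 0.0365, limma), called in 2 of 16 fits without 1 library, with a highest adjusted p of 0.091. Hsdl2, a peroxisomal dehydrogenase-like protein, was at 8.16 to 11.5 in pair-fed liver and 14.9 to 25.4 in LA-fed liver, and at 49.2 to 58.7 and 47.8 to 56.2 in fat. Its difference of 1.08 ± 0.19 lost its call without liver PF replicate 1 (adjusted p = 0.052) and without fat PF replicate 1 (adjusted p = 0.063, limma). Lrpprc, which stabilises mitochondrial messenger RNA, had 0.52 in liver and -0.12 in fat. Its difference was called in 3 of the 16 fits, and median centring of the libraries also ended its call.

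Acot2 was the only called difference on the fatty acid oxidation list. Of its 29 members, 4 rose and 1 fell in liver and none passed in fat. The medians were 0.11 in liver and -0.06 in fat. Cpt1a, the gate of fatty acid entry into mitochondria, had 0.17 and 0.20. Vnn1 had 1.00 in liver (adjusted p = 0.0083, limma) and 0.05 in fat, with a difference of 0.95 that was not called (adjusted p = 0.293). Pex11a, which drives peroxisome division, had 0.64 in liver (adjusted p = 0.044, limma) and -0.24 in fat (unadjusted p = 0.0466), and its difference of 0.89 missed the threshold (adjusted p = 0.0723).

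Trib3, a pseudokinase induced by amino acid shortage and stress of the endoplasmic reticulum, had the largest called difference among members. Pnpla3, Rgs16 and G1p2 had larger ones that missed the threshold. Trib3 was at 2.81, 2.11, 0.975 and 1.92 FPKM in pair-fed liver and at 11.8, 22.5, 10.9 and 18.6 in LA-fed liver. The fat libraries lay at 1.89, 2.56, 0.720 and 1.96 under PF and at 4.07, 2.02, 2.18 and 4.46 under LA. The ratio of means was 8.17 in liver and 1.79 in fat, and the fat groups overlapped. The fat effect was 0.59 with an interval of -0.01 to 1.18, and fat missed the unadjusted threshold (unadjusted p = 0.0524, limma). The difference of 1.91 ± 0.39 (adjusted p = 0.0449, limma) kept its call in 4 of 16 fits without 1 library, with adjusted p from 0.019 to 0.11. Its promoter match is printed above. Of 21 members of the amino acid stress list, 3 rose and 1 fell in liver, beside 2.27% and 2.21% of all genes tested there. Trib3 alone of these members had a called difference. Phgdh (1.97, adjusted p = 0.00863, limma) and Vldlr (0.647, adjusted p = 0.0362) on the list had one too. Both were below 1 FPKM in a group and so were not members. Slc3a2 had 0.61 in liver and 0.14 in fat, Pycr1 0.61 and -0.15, and Atf4 itself 0.04 and 0.09.

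Further liver-sided rises were Ly6c (1.40), Ugt1a6 (1.29), RGD1560523 (0.96) and Ms4a6a (0.94). Ugt1a6, an enzyme that joins glucuronic acid to phenols, was at 10.1 to 19.8 FPKM in pair-fed liver and 29.8 to 43.9 in LA-fed liver, and at 35.9 to 41.4 and 37.7 to 42.0 in fat. The LA liver libraries spanned the range of the fat libraries. Genes of the Ugt1a locus share exons, so its reads may be shared. Ly6c and Ms4a6a are found on myeloid cells. Ly6c was at 2.72 to 5.37 in pair-fed liver and 11.3 to 17.6 in LA-fed liver, while fat was at 45.9 to 62.1 and 55.0 to 81.5. Ms4a6a was at 0.515 to 1.47 in pair-fed liver and 2.36 to 3.22 in LA-fed liver, with fat at 16.7 to 20.3 and 17.5 to 19.8. The macrophage sums given above were higher in LA-fed liver without overlap, and their part in these 2 differences was not tested. Calls were kept in 10 of 16 fits without 1 library for Ly6c, 11 for Ugt1a6 and 9 for Ms4a6a. RGD1560523 is a gene model without a name, and was called in all 16.

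**Figure D3:**
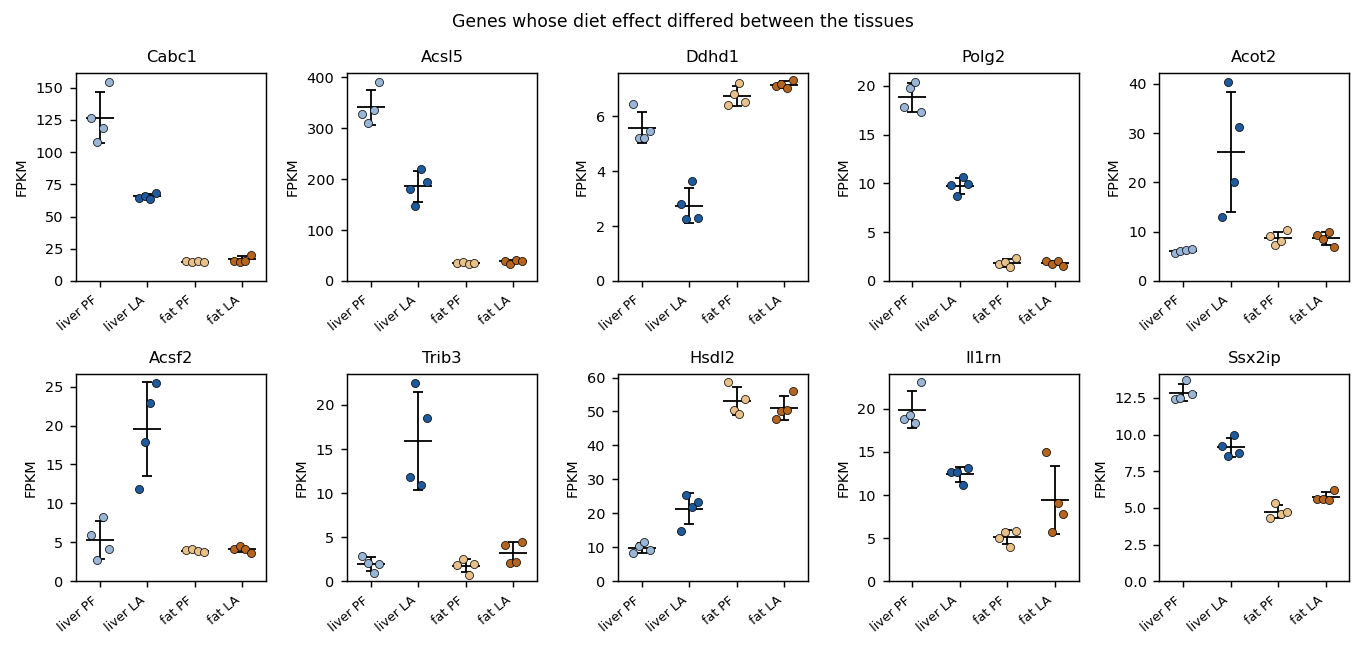
FPKM (vertical, from 0) of 8 liver-sided genes and 2 opposite genes (Il1rn, Ssx2ip) in the 4 groups, each point a library and each bar the mean with its SD. The diets separate in liver for each gene, while the fat points of the liver-sided genes overlap, as for Acot2 at 6.95 to 10.3.

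Opposite responses were found for 3 members, all lower under LA in liver and higher in fat. None of the 3 passed in fat after adjustment, and their fat effects had unadjusted p of 0.0115 to 0.0316 (limma). Il1rn encodes the natural antagonist of the interleukin-1 receptor, which is secreted by hepatocytes as an acute-phase protein and by fat tissue in obesity. It was at 18.8, 19.3, 18.4 and 23.1 FPKM in pair-fed liver and at 12.7, 12.7, 11.1 and 13.1 in LA-fed liver. In fat the levels were at 5.07, 5.76, 4.00 and 5.78 under PF and at 14.97, 5.76, 9.12 and 7.78 under LA. The liver groups were separate, and in fat LA replicate 2 lay at the top of the PF range. The effects were -0.64 in liver (adjusted p = 0.00338, limma) and 0.70 in fat (unadjusted p = 0.0145), with a difference of -1.34 ± 0.26 (adjusted p = 0.0394, limma). Fat LA replicate 1, the library with the highest macrophage sum, was the highest. Without it the difference was -1.11 and was called (adjusted p = 0.017, limma), but in 14 of the 16 fits without 1 library the call was lost, with a highest adjusted p of 0.092.

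Ssx2ip, a protein of cell junctions and centrosomes, was at 12.4, 12.5, 13.7 and 12.8 FPKM in pair-fed liver and at 9.24, 8.53, 10.0 and 8.71 in LA-fed liver. Fat libraries were at 4.34, 5.36, 4.58 and 4.70 under PF and at 5.58, 5.61, 5.51 and 6.24 under LA. The diets did not overlap in either tissue, though in fat the gap was narrow. The difference was -0.68 ± 0.11 (adjusted p = 0.00808, limma), called in all 16 fits without 1 library, with a liver effect of -0.45 and a fat effect of 0.23 (interval 0.03 to 0.44). Its call was lost with libraries blocked by rat and with libraries blocked by replicate number. RGD1311307, listed in RefSeq as Pxdc1, was at 22.2 to 26.9 in pair-fed liver and 15.3 to 21.9 in LA-fed liver, and at 27.8 to 30.0 and 30.3 to 40.5 in fat. Its diets did not overlap in either tissue, and its difference of -0.74 ± 0.15 was called in 3 of the 16 fits. The number of opposite members was 0 without fat PF replicate 1 or fat PF replicate 4, 1 without liver PF replicate 1 or 3, liver LA replicate 2 or 3, or fat LA replicate 4, and 2 to 4 otherwise.

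No member was fat-sided. Members that came near were Dock2, B4galt1, Mertk and Them4, with unadjusted p of the difference from 0.0031 to 0.00421 (limma). Mertk, a receptor by which macrophages clear dying cells, was at 7.10, 4.52, 5.16 and 5.44 FPKM in pair-fed fat and at 10.1, 7.60, 7.11 and 8.57 in LA-fed fat. In liver it was at 3.07 to 6.28 and 3.18 to 3.92. The fat groups just failed to overlap, and the difference of -0.77 ± 0.23 was not called (adjusted p = 0.231). Dock2, a regulator of white cell movement, had -0.23 in liver and 0.30 in fat. Them4 had 0.19 and -0.22. Without fat PF replicate 3 there was 1 fat-sided member.

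The clock genes, which are sensitive to the time of feeding, showed no called difference among 15 members. Nr1d1, a repressor within the clock, was at 30.2 to 33.8 FPKM in pair-fed liver and 16.4 to 24.6 in LA-fed liver, and at 32.2 to 50.9 and 34.95 to 42.4 in fat. Its liver effect was -0.71 (adjusted p = 0.00609, limma) and its fat effect -0.09, and the difference of -0.62 missed the threshold (adjusted p = 0.257). Its clock partner Bhlhe40 had -0.70 in liver and -0.05 in fat, and Dbp and Per2 had -0.45 and -0.24 in liver and -0.18 and -0.09 in fat. In glycolysis and fructose use, Rgs16, a carbohydrate-responsive regulator of G proteins, had -2.20 in liver (adjusted p = 0.0013, limma) and -0.24 in fat, and its difference of -1.96 just missed the threshold (adjusted p = 0.0525). Pck1, which starts glucose production in liver and glycerol production in fat, had 0.03 and 0.04.

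**Figure D4:**
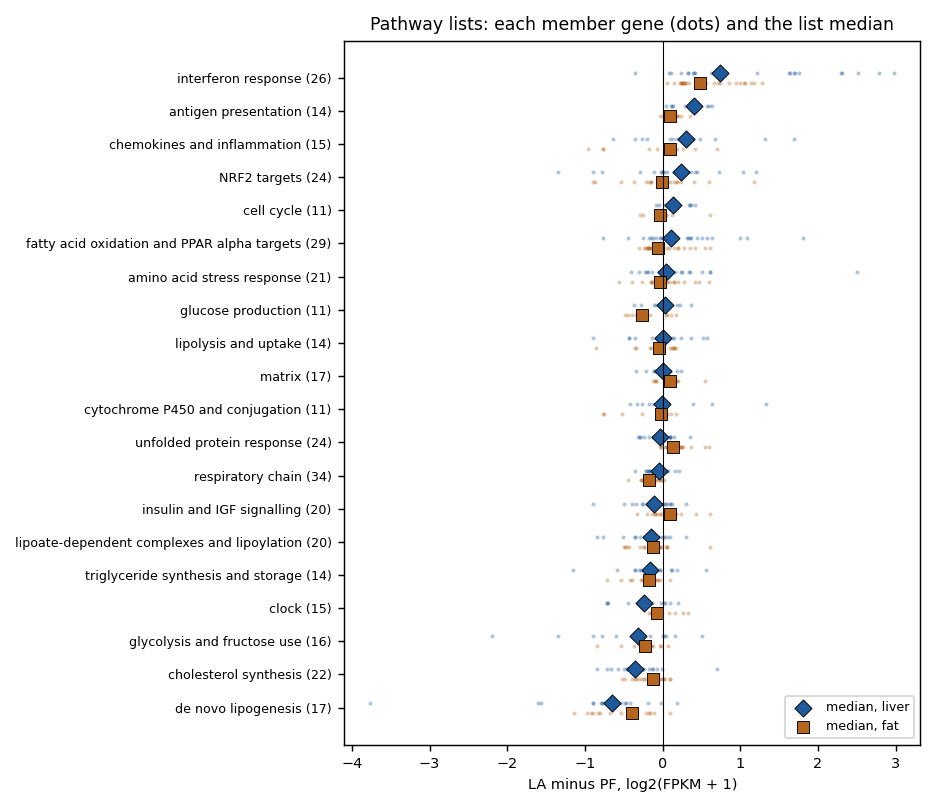
Feed effects (horizontal, LA minus PF on log2(FPKM + 1)) of the members of 20 pathway lists in rows, with the number of members in brackets, liver in blue and fat in brown. Each dot is a gene and each large symbol a list median, from 0.74 and 0.48 for the interferon list at the top to -0.65 and -0.40 for lipogenesis at the bottom.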

How the data were processed

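Liver and epididymal fat RNA was sequenced, 4 libraries for each tissue and diet. As the labels' protocols state, total RNA was made into TruSeq V2 libraries, which carry no strand mark, so reads of a gene and of an antisense partner cannot be separated. The submitters' processing notes name CASAVA 1.8.2, TopHat 0.12.8 and Cuffdiff. The genome build is not given in the sources used here. FPKM is the unit the authors deposited, a value for each symbol in each library, per the file headers. FPKM values are shares, so a few abundant genes can move the others.

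The test was limma 3.58.1 (R 4.3.3, trended variance) on log2(FPKM + 1). P-values were adjusted by Benjamini-Hochberg over the genes that reached 1 FPKM in 4 libraries of the fit: 9710 in liver, 11501 in fat and 12079 over 16 libraries for the difference and the mean of the effects. The fits were also run on simulated data with independent noise in each library, which cannot check the unknown pairing by rat. Fold changes on this scale understate changes of low genes. Libraries were treated as independent, since the labels do not say which liver and fat libraries come from the same rat. Each rat gave both tissues, so p-values of the mean effect are too small if the libraries of a rat vary together. Nothing says that fat and liver spread alike, so the effects of each tissue were fitted apart. The difference and the mean of the effects came from 1 fit of 16 libraries, which takes 1 spread per gene for both tissues. P-values measure the spread between libraries of these rats.

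Members and lists were chosen with earlier results of these data known. The rule for named genes took, among named members without a 0, the 8 largest called differences each way, up to 8 opposite and 6 fat-sided members, 8 shared rises and 8 shared falls by adjusted p, up to 3 called members per list, the 5 members nearest to an empty class, and a preset of metabolic genes. Other genes in the text are list members or the rest of the called and shared genes, chosen after their values were seen. Among genes on the lists, 529 were found under their symbol and 27 under an older one from the RefSeq table (GRCr8 assembly), and 20 found no match and were left out. That table holds 13499 of the 22517 symbols as current names. Promoter sequences are RefSeq's. A few genes that the rule named are not reported here. The alternatives were a pseudocount of 0.1, filters, median centring, replicate blocks, 1 model, array weights, each replicate left out, a mean of 5 FPKM, genes with a 0 left out, genes over 50-fold apart left out, an adjusted p under 0.1 and a size over 1. Figures were drawn with matplotlib 3.10.9.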

Additional observations from a re-analysis of the deposited data

Results flagged for a closer look

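The feed effect differed between the tissues, by the test of the difference itself, for 24 members, of which 22 are given here. The differences (liver minus fat, log2 scale) were positive for Trib3 (1.91), Acot2 (1.81), Acsf2 (1.70), Ly6c (1.40), Ugt1a6 (1.29), Hsdl2 (1.08), RGD1560523 (0.96), Ms4a6a (0.94) and Lrpprc (0.64). They were negative for Il1rn (-1.34), Cabc1 (-1.05), Acsl5 (-1.02), Plekhb1 (-0.98), Ddhd1 (-0.90), Polg2 (-0.87), Zfp36l1 (-0.80), Ltbp4 (-0.74), Lcmt1 (-0.74), RGD1311307 (-0.74), Tmem63a (-0.74), Ssx2ip (-0.68) and RGD1310660 (-0.64).

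Among 252 groups of 4 libraries looked at over the named genes, 5 held a library far from the other three by Dixon's criterion, where chance gives about 1 in 20 groups. These were the highest LA fat library for Ssx2ip (6.24 FPKM), the highest LA liver library for Pnpla3 (37.5), the lowest PF fat libraries for Pcyt2 (20.4) and Pck1 (373), and the highest PF fat library for RGD1560523 (30.6).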

How the results depend on the processing

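No difference of a named gene that was called in the main or an alternative run changed sign between them. Differences without a call could change sign: that of Acaca ran from -0.29 to 0.37 over the fits without 1 library. The main counts of members were 24 differences (21 liver-sided, 3 opposite, 0 fat-sided), 63 shared, 339 in liver and 0 in fat. Without a filter on low values there were 8 differences (7 liver-sided, 1 opposite) and 225 liver calls, and with only members in the fits 13 differences (12 and 1). A mean of 5 FPKM or more gave 15 differences (13 liver-sided), 39 shared and 196 liver calls. Array weights gave 95 shared genes, and 1 model over 16 libraries for the effects of each tissue as well called 2 members in fat. An adjusted p under 0.1 gave 56 differences (42 liver-sided, 10 opposite) and 692 liver calls, and a size over 1 gave 9 (8 and 1), 16 shared and 45. The cause of these shifts beyond the change in genes tested or threshold was not tested. Leaving out each replicate gave 7 to 36 differences (7 to 33 liver-sided, 0 to 4 opposite, 0 to 1 fat-sided), 36 to 106 shared, 166 to 341 in liver and 0 in fat.

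Whether equal replicate numbers mark the same rat was not settled. Deviations of liver and fat libraries of a diet with the same number correlated at -0.283 to 0.374. Of 8 liver libraries, 4 correlated best with the fat library of their own number. The replicate block by rat (diet and number) called 22 differences, 13 of them among the 24 (14 liver-sided, 2 opposite, 0 fat-sided). The mean of both tissue effects was not fitted with this block, so the shared responses have no check by rat. The replicate block by number within tissue called 5 differences (3 liver-sided, 0 opposite), 34 shared, 358 in liver and 0 in fat. Of the 24 differences, Cabc1, Acsl5 and Hsdl2 were called under the block by number. Of the genes given here, the block by rat ended the calls of Acot2, Acsf2, Ms4a6a, Il1rn, Ddhd1, Polg2, Ltbp4, Ssx2ip and Lrpprc. FPKM without counts leaves the depth of low genes unknown. A pseudocount of 0.1 ended the calls of Trib3, Acsf2, Polg2 and Lrpprc.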

Other observations

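Over the 34 members of the respiratory chain, which passes electrons to oxygen in mitochondria, no gene had a called difference or a called mean effect, and Ndufa1 alone passed in liver (-0.36, adjusted p = 0.0181, limma), with 0.02 in fat. The feed effects were small and mostly below 0: 33 of 34 were lower under LA in fat, with a median of -0.17, and 26 of 34 in liver, with a median of -0.05. At an unadjusted p under 0.05, 0 of 34 passed in fat and 3 of 34 for the difference.

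Genes of the unfolded protein response, which raises the folding capacity of the endoplasmic reticulum, were not called in either tissue or for the difference. Of 24 members 22 were higher under LA in fat (median 0.13) and 11 in liver (median -0.03), and the difference was positive in 5. For the difference 3 reached an unadjusted p under 0.05: Pdia4 (-0.29 in liver, 0.22 in fat), P4hb (-0.32 and 0.13) and Edem1 (-0.24 and 0.25). Over 22 members of cholesterol synthesis 21 were lower in liver (median -0.36) and 17 in fat (median -0.13), with no call in either tissue or for the difference. Each list shares its libraries and rats, so its genes are not independent of each other.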
